A study of Mus musculus with 2 samples.

Results

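Collagen genes were described in the forebrain of newborn mice. Members were the genes of both deposited gene tables that GENCODE M21 annotates as protein-coding and whose symbol is Col, a number, the letter a and a number. This rule found 44 genes among 21474 protein-coding genes and 69691 table entries. They comprised 11 fibrillar chains, the 6 type IV chains of basement membranes and 27 chains of other types. Total RNA had been sequenced from 1 forebrain each of pup 1 (replicate 1) and pup 3 (replicate 2) of strain B6NCrl at postnatal day 0. The labels name no allele, transgene or agent. The 2 libraries form 1 group, so there was no contrast between conditions. The pups' sex was not collected, and both carry the same donor identifier, so separate parentage is not established and the spread between them may be partly technical.

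Collagens are extracellular matrix proteins whose chains wind into a triple helix, which requires a glycine at the first position of every Gly-X-Y triplet. Fibrillar chains form ropes in skin, bone, vessel walls and the meninges, type IV chains form the sheet-like network of basement membranes, and the other types decorate fibrils, form beaded filaments or hexagonal nets, or span the cell membrane. In the brain, collagen is known mainly from blood vessels, the meninges and the basement membrane at the brain surface, and some of the membrane-spanning and fibril-associated types are made by neurons.

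The repeat can be read in the genes, because a glycine codon is any of the GGN codons. The exons below, each 54 nt long, come from the 3 highest fibrillar genes and show the unit from which fibrillar genes are built. Each is printed 5′ to 3′ on the plus strand of GRCm38 (mm10) from the GENCODE M21 transcripts, and capitals mark the 6 glycine codons that open each triplet. They are exon 7 of Col3a1 (chr1:45325805-45325858), exon 8 of Col1a2 (chr6:4515481-4515534) and exon 8 of Col1a1 (chr11:94939904-94939957), all coding.
Col3a1 exon 7: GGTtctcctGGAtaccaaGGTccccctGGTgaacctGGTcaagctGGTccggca
Col1a2 exon 8: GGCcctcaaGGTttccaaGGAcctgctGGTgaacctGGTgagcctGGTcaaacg
Col1a1 exon 8: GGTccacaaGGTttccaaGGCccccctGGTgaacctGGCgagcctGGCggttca
Aligned without gaps, the Col1a1 and Col1a2 exons shared 42 of 54 bases. The Col3a1 exon shared 38 of 54 bases with each of them.

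In type IV chains the repeat is broken many times, which is what makes the molecule flexible. A break inside 1 coding exon is shown for each of the 2 main chains, with capitals on the glycine codons of the repeats before and after it. The Col4a1 stretch lies in exon 28 on the minus strand (chr8:11223000-11223050), and the Col4a2 stretch in exon 20 on the plus strand (chr8:11415964-11416029).
Col4a1 exon 28, 51 nt: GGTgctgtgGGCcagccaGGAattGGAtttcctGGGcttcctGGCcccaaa
Col4a2 exon 20, 66 nt: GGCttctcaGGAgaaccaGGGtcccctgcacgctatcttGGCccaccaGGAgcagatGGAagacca
In Col4a1 a triplet lacks 1 codon between runs of 15 and 16 repeats. In Col4a2, 4 extra codons separate runs of 6 and 9 repeats.

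Over the longest coding transcript of each gene, the longest unbroken run of glycine triplets had a median of 338 repeats in the 11 fibrillar genes, with a range of 216 to 344. In 9 of these 11 the run held 300 or more repeats, and the other two were Col27a1 with 217 and Col24a1 with 216. The 6 type IV genes had a median longest run of 43.5 repeats (39 to 66) and were divided into 22 to 27 runs of 5 or more repeats. The 27 other genes had a median longest run of 45 repeats (23 to 113). The longest runs among them, 113 repeats, were in the type IX genes Col9a1, Col9a2 and Col9a3 and in Col22a1. Exons of exactly 54 nt made up 47.0% of 649 coding exons in fibrillar genes, 4.05% of 296 in type IV genes and 14.3% of 1060 in the others. The classes were set by type names, so these repeat lengths are a description of the classes and not a test of them.

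**Figure D1:**
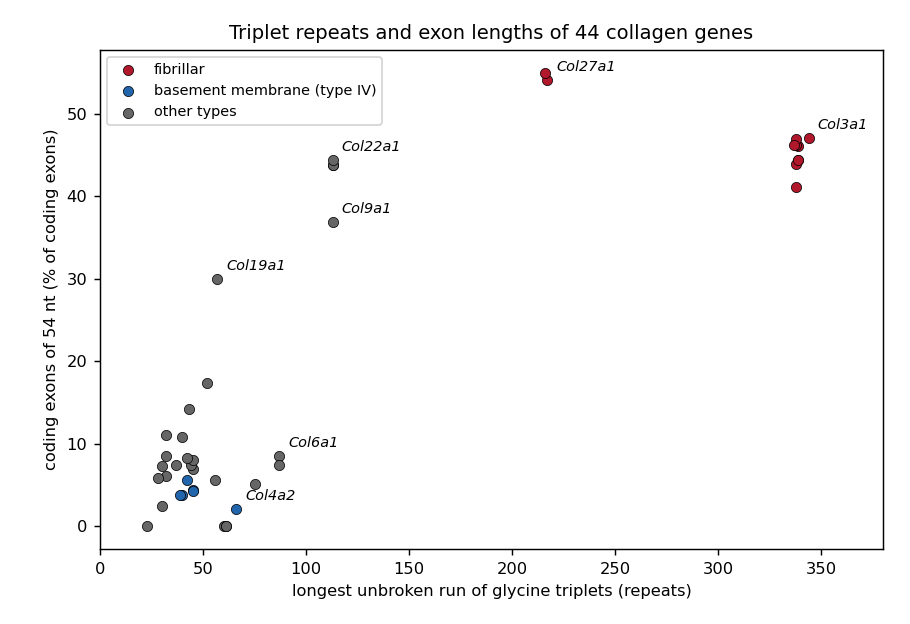
Longest unbroken run of glycine triplets (x axis, number of repeats) against the share of coding exons that are 54 nt long (y axis, percent) for the 44 collagen genes, 1 point per gene coloured by class. The fibrillar genes lie at 216 to 344 repeats, while all type IV and other genes lie at 113 or below.

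Levels are given in TPM, the deposited abundance per transcript length and relative to the whole library, so that genes can be set beside each other. A gene was called detected at 1 TPM or more in both pups. Of the 44 collagens, 28 (63.6%) were detected, beside 60.7% of all protein-coding genes (13030 of 21474). By class, 8 of 11 fibrillar, 3 of 6 type IV and 17 of 27 other collagens were detected. In 9 collagens the level exceeded 10 TPM in both pups. The median over all 44 was 2.37 TPM, against 4.04 TPM over all protein-coding genes, and the highest, Col3a1, stood at the 75.4th percentile of detected protein-coding genes. In whole-forebrain RNA, fewer cells of a type and less RNA per cell cannot be told apart.

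All 44 collagens together held 0.0359% of TPM in pup 1 and 0.0305% in pup 3. By reads they held 0.103% of expected counts in pup 1 and 0.0984% in pup 3 (exact 95% binomial intervals 0.102% to 0.104% and 0.0974% to 0.0994%, counting error only). Fibrillar genes made up 40.2% of collagen TPM in pup 1 and 39.9% in pup 3. Type IV genes made up 17.9% in each pup. The 6 highest genes, Col3a1, Col9a3, Col1a2, Col4a1, Col1a1 and Col26a1, held 63.4% of collagen TPM in pup 1 and 65.0% in pup 3.

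**Figure D2:**
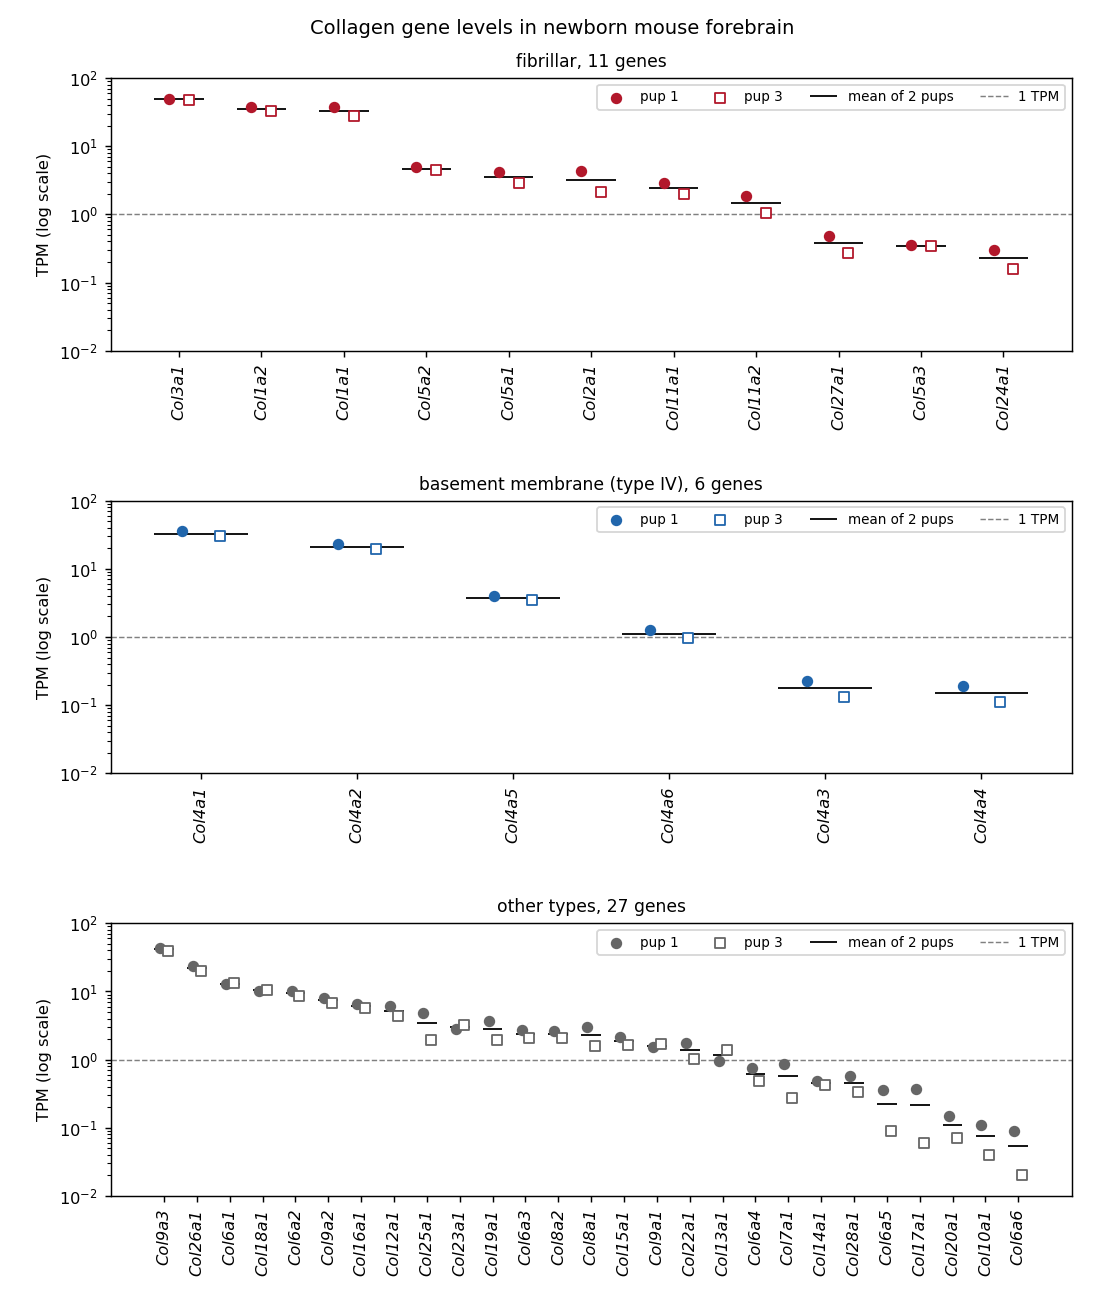
TPM on a log scale for each collagen gene in pup 1 (filled circles) and pup 3 (open squares), with the mean of the 2 pups as a bar and 1 TPM as a dashed line, in 3 panels by class. Levels fall from 48.8 TPM for Col3a1 to 0.055 TPM for Col6a6, and 28 genes lie at or above the line in both pups.

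Among fibrillar genes, Col3a1 led. It encodes the single chain of type III collagen of vessel walls and soft connective tissue, and in mice its protein is a known ligand of the adhesion receptor Adgrg1 at the surface of the developing brain. Col3a1 (chr1:45311538-45349706, plus strand) had 49.95 TPM in pup 1 and 47.74 TPM in pup 3, a mean of 48.8 ± 1.6 (SD, n = 2), from 5711 and 6291 counts. Col1a2 (chr6:4504814-4541544, plus strand), the minor chain of type I collagen, had 37.5 TPM in pup 1 and 33.1 TPM in pup 3. Col1a1 (chr11:94936224-94953042, plus strand), the major type I chain, had 37.56 TPM in pup 1 and 27.57 TPM in pup 3. The ranges of Col1a2 and Col1a1 overlapped, and Col3a1 lay above both in each pup.

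The other fibrillar genes were far lower. Col5a2 and Col5a1 encode chains of type V, a minor component that sets the diameter of type I fibrils. Col5a2 had 4.92 TPM in pup 1 and 4.46 TPM in pup 3. Col5a1 had 4.2 TPM in pup 1 and 2.85 TPM in pup 3. Their ranges did not overlap. Col2a1, the main cartilage collagen, had 4.28 TPM in pup 1 and 2.11 TPM in pup 3. The type XI chains, which play the role of type V in cartilage fibrils, had 2.85 and 1.98 TPM for Col11a1 and 1.88 and 1.03 TPM for Col11a2, in pup 1 and pup 3. Neighbours from Col5a1 through Col2a1 to Col11a1 overlapped in their pup ranges. Col5a3, Col27a1 and Col24a1 stayed below 0.5 TPM in each pup.

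Type IV genes divided into a high and a low set. Col4a1 and Col4a2 encode the chains found in nearly every basement membrane, including that of brain vessels. Col4a1 (chr8:11198423-11312826, minus strand) had 35.33 TPM in pup 1 and 30.57 TPM in pup 3, a mean of 33.0 ± 3.4 (SD, n = 2). Col4a2 (chr8:11312805-11449287, plus strand) had 23.08 TPM in pup 1 and 19.23 TPM in pup 3, a mean of 21.2 ± 2.7 (SD, n = 2). Col4a1 was above Col4a2 in each pup, and the ranges did not overlap. Col4a5, a chain of the specialised kidney network that also occurs in other membranes, had 4.04 TPM in pup 1 and 3.44 TPM in pup 3. Its partner Col4a6 had 1.25 TPM in pup 1 and 0.96 TPM in pup 3, and so missed detection through pup 3. Col4a3 and Col4a4, the remaining chains of the kidney filter, stayed at 0.23 TPM or below.

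The fibril-associated collagens, which bind to the surface of fibrils, held the second highest member. Col9a3 (chr2:180597790-180622189, plus strand), a type IX chain best known from cartilage, had 43.68 TPM in pup 1 and 38.95 TPM in pup 3, a mean of 41.3 ± 3.3 (SD, n = 2). Its partner Col9a2 had 7.98 TPM in pup 1 and 6.89 TPM in pup 3. The third type IX chain, Col9a1, had 1.53 TPM in pup 1 and 1.68 TPM in pup 3. The 3 type IX genes thus stood in 1 order in both pups with no overlap between them. Col16a1, a minor fibril-associated chain, had 6.47 and 5.67 TPM, and Col12a1, which binds type I fibrils, had 6.06 and 4.32 TPM, in pup 1 and pup 3. Col19a1, made by interneurons in the mouse brain, had 3.68 TPM in pup 1 and 1.95 TPM in pup 3. Col22a1, a collagen of tissue junctions, had 1.73 TPM in pup 1 and 1.02 TPM in pup 3. Its counts ran the other way, 155 in pup 1 and 170 in pup 3, and the gene length in the deposited table was 3694 nt in pup 1 and 6040 nt in pup 3. Col14a1 and Col20a1 were not detected.

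Type VI collagen forms beaded filaments next to basement membranes. Col6a1 had 12.69 TPM in pup 1 and 13.19 TPM in pup 3, and Col6a2 had 10.06 TPM in pup 1 and 8.63 TPM in pup 3. Col6a3, whose chain joins these 2 in the classic trimer, had 2.72 TPM in pup 1 and 2.05 TPM in pup 3. The alternative chains Col6a4, Col6a5 and Col6a6 were below 1 TPM. Of the multiplexins, basement membrane collagens whose tail fragments include endostatin, Col18a1 had 10.16 TPM in pup 1 and 10.58 TPM in pup 3. The related Col15a1 had 2.12 TPM in pup 1 and 1.65 TPM in pup 3. Its counts ran the other way, 134 in pup 1 and 154 in pup 3, and its deposited length was 2635 and 3412 nt. Protein-coding transcripts of Col15a1 had 1.55 TPM in pup 1 and 1.65 TPM in pup 3.

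The membrane-spanning collagens gave 2 detected members of 4. Col25a1, a neuronal chain known in humans from amyloid plaques, had 4.87 TPM in pup 1 and 1.95 TPM in pup 3. Col23a1 had 2.79 TPM in pup 1 and 3.19 TPM in pup 3. Col13a1, found at neuromuscular junctions, had 0.97 TPM in pup 1 and 1.37 TPM in pup 3 and was thus detected in pup 3 alone, while Col17a1 of skin hemidesmosomes was below 1 TPM. Col8a1 and Col8a2 form the hexagonal net of Descemet's membrane in the eye and also occur in vessels. Col8a1 had 3.04 TPM in pup 1 and 1.57 TPM in pup 3, and Col8a2 had 2.64 TPM in pup 1 and 2.05 TPM in pup 3. Col26a1, a chain first described in testis and ovary of the mouse, had 23.39 TPM in pup 1 and 20.21 TPM in pup 3, the sixth highest of all members. Col10a1 of hypertrophic cartilage, Col7a1 of the skin's anchoring fibrils and Col28a1 of peripheral nerve were not detected.

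The 16 collagens that were not detected had means of 0.055 to 1.17 TPM from 3 to 203 counts, and none was at 0 in either pup. Among the 27 neighbouring pairs in the order of the 28 detected collagens, 18 overlapped in their pup ranges. The 9 without overlap all lay among the 15 highest genes. Counts were whole numbers in both pups for 42 of 44 members, the others being Col9a3 and Col4a3. Counts that are not whole hold reads divided between entries. In GENCODE M21, Col9a3 shares 234 nt of exon with Tcfl5 on the opposite strand, and Col4a3 shares 563 nt with C430014B12Rik on the opposite strand. Since the sources used here do not state strandedness, reads within these shared stretches cannot be told apart. Tcfl5 had 55.69 counts in pup 1 and 42.26 in pup 3, beside 2737.31 and 2919.74 for Col9a3. C430014B12Rik had 9.62 counts in pup 1 and 24.18 in pup 3, beside 43 and 31.66 for Col4a3.

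Chains that assemble together, or whose genes are neighbours, were compared as ratios within each library, where scaling between libraries cancels. The value was the log2 ratio of TPM + 0.1, and a ratio passed where both pups had the same sign and the mean exceeded 3 SD. Of 18 ratios, 12 did so. It is no test of significance, since an exact two-sided sign-flip test on 2 animals cannot give a p below 0.5.

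Col4a1 over Col4a2 was 1.53-fold in pup 1 and 1.59-fold in pup 3 (mean log2 0.64 ± 0.04, SD, n = 2). The known trimer of these chains holds 2 copies of the Col4a1 product and 1 of Col4a2. The genes lie head to head, and in GENCODE M21 their first exons overlap by 22 nt on chromosome 8. That overlap is shown because it holds both annotated starts, on the plus strand of GRCm38 (chr8:11312805-11312826), with a GC box, the motif GGGCGG, in capitals.
Col4a1 and Col4a2 overlap: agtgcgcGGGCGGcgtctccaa
The 2 other head-to-head type IV pairs had lower TPM levels. Col4a5 over Col4a6 was 3.07-fold in pup 1 and 3.34-fold in pup 3 (mean log2 1.68 ± 0.09), with gene starts 1309 nt apart. That ratio covers all Col4a5 transcripts. Col4a5-204 held 47.36% of Col4a5 TPM in pup 1 and 53.49% in pup 3. It starts at position 141630124 of chromosome X, whereas Col4a5-202 starts at the paired site, 141475385. Col4a5-202 alone had 1.75 TPM in pup 1 and 1.6 TPM in pup 3, beside 1.25 and 0.96 TPM for Col4a6. Col4a3 over Col4a4 was 1.14-fold in pup 1 and 1.10-fold in pup 3 (mean log2 0.16 ± 0.04), from 30 to 47 counts per gene and pup and with starts 72 nt apart. That ratio did not pass the rule with a pseudocount of 1 (0.04) or with protein-coding transcripts only (0.09), and it turned to -0.02 with counts not divided by length.

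The type IX chains also stood apart from each other. Col9a3 over Col9a2 was 5.42-fold in pup 1 and 5.59-fold in pup 3 (mean log2 2.46 ± 0.03). Col9a2 exceeded Col9a1 4.96-fold in pup 1 and 3.93-fold in pup 3. The 3 chains assemble in equal numbers in the known type IX molecule. Within type VI, Col6a1 exceeded Col6a3 4.54-fold in pup 1 and 6.18-fold in pup 3 (log2 of Col6a3 over Col6a1 -2.40, and -3.33 with protein-coding transcripts only). Col18a1 exceeded Col15a1 4.62-fold in pup 1 and 6.10-fold in pup 3. The mean log2 of Col15a1 over Col18a1 was -2.41, -1.82 with posterior mean TPM and -2.60 with protein-coding transcripts only. Col3a1 exceeded Col5a2, its opposite-strand neighbour 24614 nt away on chromosome 1, 9.97-fold in pup 1 and 10.5-fold in pup 3.

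The type I chains did not separate. Col1a1 over Col1a2 was 1.00-fold in pup 1 and 0.833-fold in pup 3. The known type I molecule holds 2 Col1a1 chains for each Col1a2 chain. Col3a1 over Col1a1 was 1.33-fold in pup 1 and 1.73-fold in pup 3, higher in both but within 3 SD. Col6a1 over Col6a2, Col5a1 over Col5a2, Col8a1 over Col8a2 and Col4a1 over Col1a1 were also within 3 SD. Col11a1 over Col11a2, Col11a1 over Col5a1, Col4a5 over Col4a1 and Col5a3 over Col5a1 were beyond it.

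**Figure D3:**
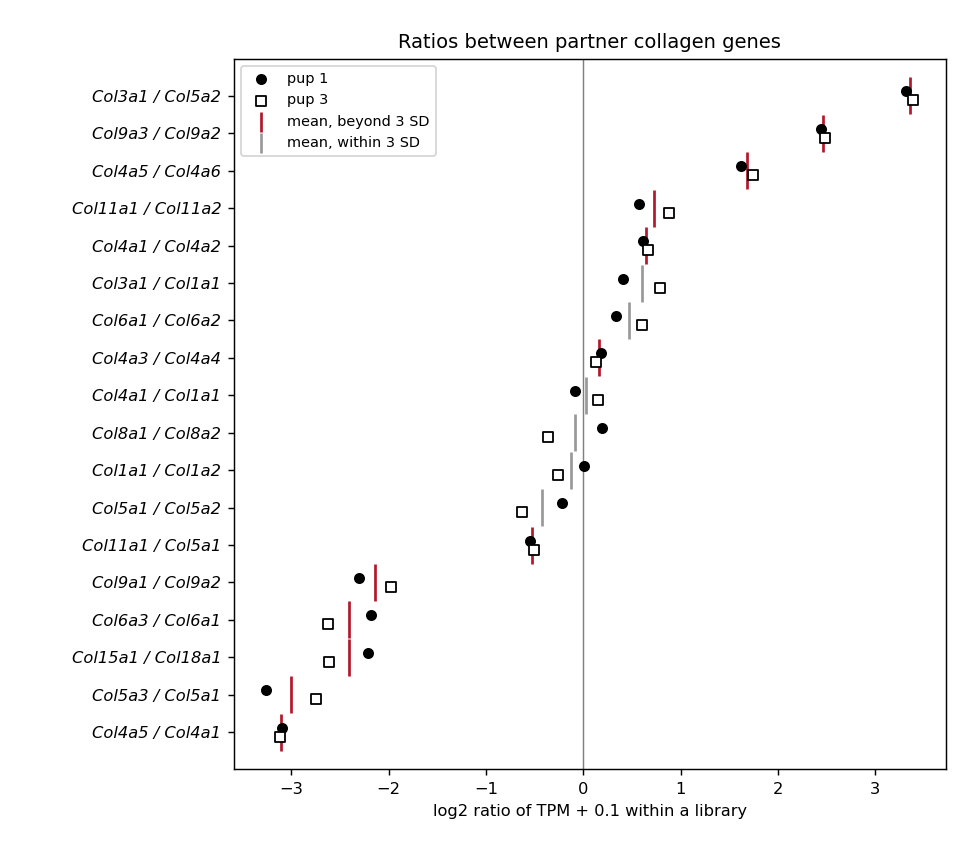
Log2 ratio of TPM + 0.1 within a library (x axis) for 18 pairs of collagen genes, with pup 1 as filled circles, pup 3 as open squares and the mean as a vertical bar, red beyond 3 SD and grey within. The Col4a1 over Col4a2 points nearly coincide at 0.61 and 0.67, whereas the Col8a1 over Col8a2 points lie on both sides of 0.

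Promoter windows of RefSeq on GRCm38, from 250 nt before to 50 nt after a start, were on hand for 35 members in 38 windows. The CCAAT motif, searched on both strands, was in 13 of the 38 windows (34.2%) and in 37.4% of all 32851 windows. The GC box GGGCGG was in 23 of 38 (60.5%) and in 35.7% of all windows. TATAAA was in 5 of 38 (13.2%) and in 13.6% of all. Col3a1, Col10a1 and Col13a1 had TATAAA without the other motifs. Both CCAAT and GC box were in a window of Col4a1, Col4a2, Col1a2, Col18a1, Col4a5, Col11a1, Col16a1, Col25a1, Col5a3, Col6a4 and Col7a1. The other Col18a1 window held none of these motifs. Of the genes just named, Col10a1, Col13a1, Col5a3, Col6a4 and Col7a1 were not detected. The Col4a1 and Col4a2 windows share 78 nt, so they are not independent. A match describes letters only and says nothing of whether a factor binds.

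The transcript tables showed which forms carried these levels. The leading transcript was the same in both pups for 23 of 28 detected collagens, and by mean share the leader was protein-coding for 25 and held 80% or more of the gene's TPM for 18. Col1a1-201 held 98.99% in pup 1 and 100% in pup 3, Col4a1-201 held 99.31% and 100%, and Col4a2-201 and Col6a1-201 held 100% in both. Col1a2-201 held 97.68% and 96.87%, Col6a2-201 held 99.4% and 98.78%, and Col9a3-201 held 88.86% and 92.65%, in pup 1 and pup 3. Col3a1-201 held 82.01% in pup 1 and 83.77% in pup 3, with most of the rest in Col3a1-205, a 737-nt transcript. Col3a1-205 had only 141.67 counts in pup 1 and 138.15 in pup 3, and a short transcript gains TPM per read. Col3a1-201 alone had 40.96 TPM in pup 1 and 39.99 TPM in pup 3. That overlaps the range of the whole Col9a3 gene (43.68 and 38.95 TPM) and lies above Col9a3-201 alone (38.82 and 36.09 TPM).

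Col9a1 and Col18a1 have alternative promoters, and in both genes the shorter form dominated. Col9a1-202 starts downstream of Col9a1-201, at position 24195187 of chromosome 1 against 24177610, and encodes 680 codons against 921. It held 91.73% of Col9a1 TPM in pup 1 and 100% in pup 3. These shares rest on few reads. Col9a1-202 had 103.26 counts in pup 1 and 140 in pup 3, and Col9a1-201 had 11.74 and 0. Col18a1-202 starts at position 77166548 of chromosome 10, upstream of the starts at 77113946 and 77113705 on this minus-strand gene, and encodes 1315 codons against 1774 and 1527. It held 95.06% of Col18a1 TPM in pup 1 and 93.44% in pup 3. The main forms of Col26a1 encode 438 and 440 codons, and the shorter coding one, Col26a1-202, held 70.35% in pup 1 and 79.63% in pup 3.

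In Col2a1 the leading form differed between the pups. Its exon 2, 204 nt at chr15:98000403-98000606 on the minus strand, encodes a cysteine-rich domain that cartilage cells skip as they mature and precursor cells keep. Col2a1-201, with that exon, held 35.06% in pup 1 and 85.51% in pup 3. Col2a1-202, without it, held 58.31% in pup 1 and 14.49% in pup 3. With 295 counts for the gene in pup 3 and 486 in pup 1, the forms rest on few reads, and this difference is between 2 libraries without replication.

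By mean share, the leading transcript of 3 detected collagens was not protein-coding: Col16a1-207, a processed transcript, and Col12a1-205 and Col6a3-206, both retained introns. Of these, Col12a1-205 led in both pups. Col16a1-207 led in pup 1, whereas protein-coding Col16a1-210 led in pup 3 (36.38% against 31.96%). Col6a3-206 led in pup 3, whereas protein-coding Col6a3-202 led in pup 1 (47.09% against 43.99%). Protein-coding transcripts held 47.1% of Col16a1 TPM in pup 1 and 55.7% in pup 3. They held 33.8% of Col12a1 TPM in pup 1 and 37.7% in pup 3, and 54.8% of Col6a3 TPM in pup 1 and 46.3% in pup 3. The retained introns are short, 432 nt for Col12a1-205 and 646 nt for Col6a3-206, with 14.1 to 20.0 counts per pup, and a short transcript gains TPM per read. Counting protein-coding transcripts only, 26 collagens were detected. The 2 that fell out were Col6a3, with 1.49 TPM in pup 1 and 0.95 TPM in pup 3, and Col11a2, with 1.28 and 0.67 TPM.

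**Figure D4:**
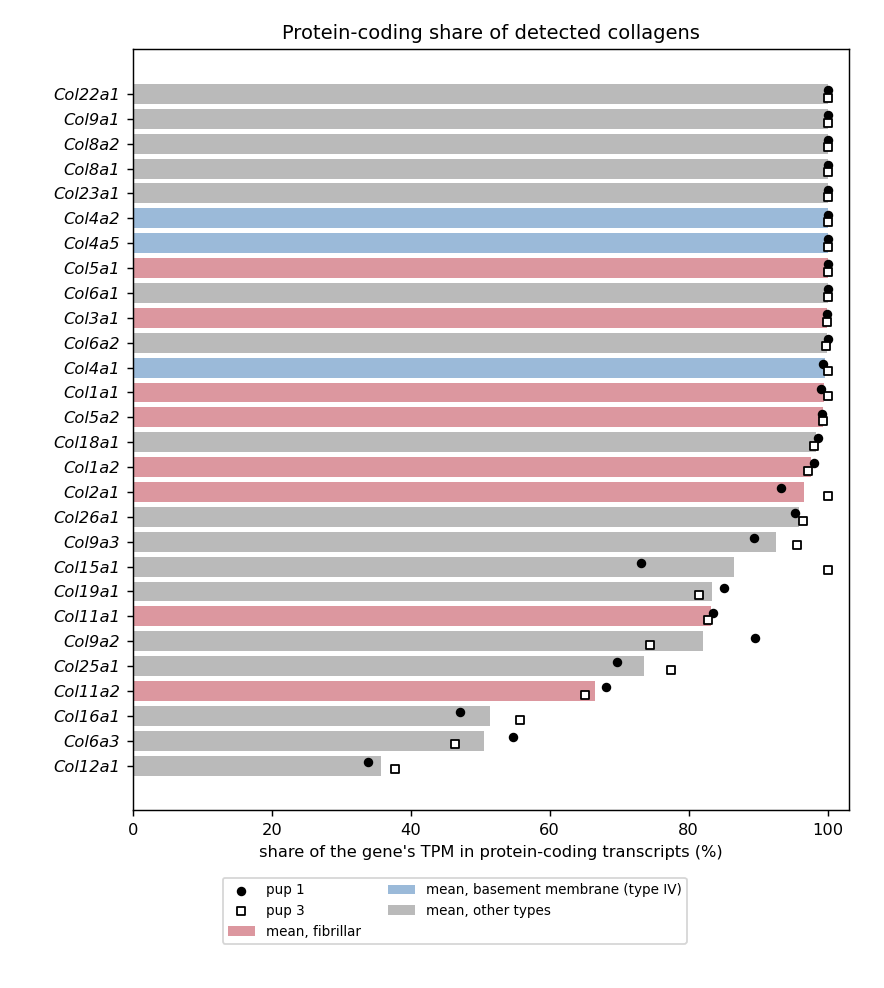
Share of each detected collagen's TPM in protein-coding transcripts (x axis, percent, values above 100 from rounding drawn at 100), with bars for the mean of the 2 pups coloured by class, pup 1 as filled circles and pup 3 as open squares. Col12a1, Col6a3 and Col16a1 stand at the bottom, and pup 1 and pup 3 lie apart for Col15a1 and Col9a2.

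The pups were compared as the ratio of TPM + 0.1, pup 1 over pup 3, for genes with a mean of 1 TPM or more. A gene was called where the ratio was at least 2-fold and the deposited TPM intervals did not overlap, which compares 2 libraries and is no test. Of 14985 genes, 596 (3.98%) were called either way and 577 (3.85%) were called higher in pup 1. Of 30 collagens, 1 was called, Col25a1, 2.42-fold higher in pup 1. With counts scaled by TMM it was 1.86-fold higher and not called. The nearest collagen under the limit was Col2a1 at 1.98-fold, followed by Col8a1 at 1.88-fold and Col19a1 at 1.84-fold.

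The ratio was above 1 in 25 of 30 collagens, against 80.4% of all genes. The median ratio was 1.18 for collagens and 1.20 for all genes, the last being a shift of 0.27 in log2 over the libraries as a whole. With TMM scaling of counts the medians were 0.952 and 0.979, and 13 of 30 collagens were above 1. The ratio changed side for 12 of 30 collagens, all from above 1 in TPM to below 1 with TMM, while the scaling moved the median of all genes in the same direction. The 5 collagens with ratios below 1 in TPM were Col13a1, Col23a1, Col9a1, Col18a1 and Col6a1, and all 5 stayed below 1 with TMM.

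**Figure D5:**
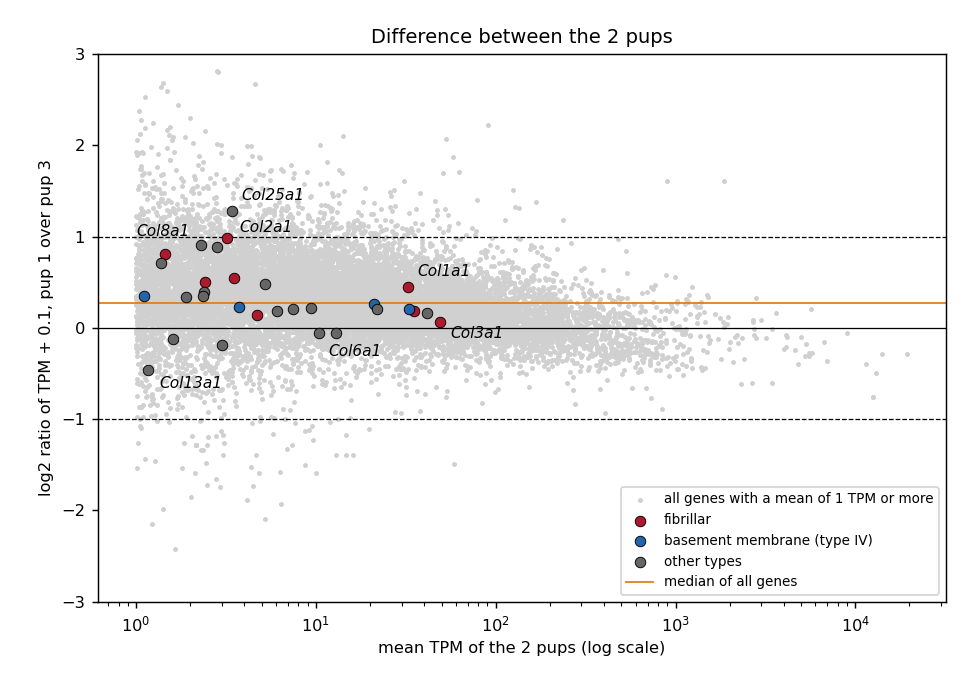
Log2 ratio of TPM + 0.1, pup 1 over pup 3 (y axis), against the mean TPM of the 2 pups on a log scale (x axis), for all genes with a mean of 1 TPM or more (grey) and for 30 collagens coloured by class. The axis leaves out 74 genes beyond it, the orange line marks the median of all genes and the dashed lines mark 2-fold. Col25a1 alone among the collagens lies above the upper dashed line.

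Of 99 genes in 8 lists of enzymes, chaperones, receptors and matrix partners of collagen, 79 were detected. Of the enzymes that hydroxylate and glycosylate collagen chains, 13 of 14 were detected. P4hb, the shared subunit of prolyl 4-hydroxylase, had 183.4 TPM in pup 1 and 183.34 TPM in pup 3. Colgalt1, which attaches galactose, had 45.36 and 45.92 TPM, and Crtap, a partner in prolyl 3-hydroxylation, had 22.19 and 19.94 TPM. P3h2 was lowest at 0.29 and 0.17 TPM. All 12 chaperone and export genes were detected. The highest were Ppib, a prolyl isomerase, with 281.64 TPM in pup 1 and 319.89 TPM in pup 3, Hspa5, a general chaperone of the endoplasmic reticulum, and Sec13, a coat protein. Fkbp14 was lowest at 3.93 and 3.37 TPM. Such enzymes also serve proteins other than collagen.

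Of the genes for removal of the procollagen ends, 5 of 10 were detected. They were led by Pcolce, an enhancer of the protease Bmp1, with 16.71 TPM in pup 1 and 14.38 TPM in pup 3, then Bmp1 and Adamts3, and Mep1b was at 0 in both pups. Of 7 crosslinking genes 6 were detected, with Pxdn, which crosslinks type IV collagen, highest at 9.72 TPM in pup 1 and 7.2 TPM in pup 3, then Loxl1 and Tgm2, and Loxl4 lowest. Of 13 receptors 8 were detected. Adgrg1, the receptor for type III collagen, had 63.07 TPM in pup 1 and 48.53 TPM in pup 3, Itgb1 had 53.36 and 46.27 TPM, and Ddr1, a receptor tyrosine kinase for collagen, had 43.99 and 30.92 TPM. The platelet receptor gene Gp6 was at 0 in both.

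Basement membrane partners were detected in 13 of 15 cases. Agrn, a heparan sulfate proteoglycan, had 53.07 TPM in pup 1 and 40.01 TPM in pup 3, ahead of Nid1 and Nid2, which link laminin to type IV collagen, and Lama3 was lowest. Of 14 fibril-associated proteoglycans and glycoproteins 11 were detected. Sparc, a collagen-binding glycoprotein, had 489.39 TPM in pup 1 and 396.22 TPM in pup 3, Dcn had 41.06 and 66.51 TPM, and Fn1 had 20.45 and 14.06 TPM. Tnxb was lowest. Of 14 collagen-degrading enzymes and inhibitors 11 were detected, led by Timp2 with 142.82 TPM in pup 1 and 100.48 TPM in pup 3, Pepd and Mmp16. In TPM, Mmp16, a membrane-bound metalloproteinase, was called 3.04-fold higher in pup 1, and Timp3, an inhibitor of such enzymes, 2.03-fold higher in pup 1. Their counts differed less than 2-fold, with 2850 and 1450 for Mmp16 and 3246 and 1795 for Timp3, in pup 1 and pup 3. Among all genes, 577 of 596 calls were also higher in pup 1. Mmp13 was lowest.

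Marker lists show which collagen-making cells the dissections could hold. All 5 forebrain region markers listed were detected, led by Bcl11b and Lhx2, but that list was added after the data were seen. Also detected were 7 of 7 neuron markers (Tubb3 and Gap43 highest) and 7 of 7 astrocyte and radial glia markers (Fabp7 and Vim highest). All 10 fibroblast and meningeal markers were detected, with a summed level of 1956 TPM in pup 1 and 1603 TPM in pup 3. Most of that sum was Ptgds, with 1675 TPM in pup 1 and 1305 TPM in pup 3, ahead of Igf2. The median over the list was 20.6 TPM in pup 1 and 21.4 TPM in pup 3. Zic1 of that list was called 2.08-fold higher in pup 1 in TPM, while its counts, 1053 in pup 1 and 558 in pup 3, differed less than 2-fold. All 10 endothelial markers (Cldn5 and Esam highest) summed to 196 TPM in pup 1 and 189 TPM in pup 3. The mural list gave 8 of 10 (Vtn and Rgs5 highest), 144 TPM in pup 1 and 152 TPM in pup 3. Microglia markers were detected in 6 of 6 cases, with C1qb and C1qa highest. Cx3cr1 was called 2.13-fold higher in pup 1 in TPM, while its counts, 716 in pup 1 and 381 in pup 3, differed less than 2-fold. Choroid plexus markers gave 7 of 8 (Ttr and Enpp2 highest), with sums of 1471 TPM in pup 1 and 1152 TPM in pup 3, and ependymal markers 5 of 5 (Dynlrb2 and Foxj1 highest).

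Genes listed as markers of cartilage, bone, skin or skeletal muscle were mostly low. Whether brain cells also make them was not tested, so their RNA need not come from those tissues. Cartilage markers were detected in 2 of 9 cases, Sox9 and Cnmd, and summed to 48.4 TPM in pup 1 and 29.8 TPM in pup 3. Most of that sum was Sox9, with 40.42 TPM in pup 1 and 24.74 TPM in pup 3. Cnmd had 4.74 TPM in pup 1 and 2.87 TPM in pup 3, above Col2a1 in both pups. Sox9 was also above Col2a1 in both pups. The rest of the list was below Col2a1 in both pups. Snorc had 1.27 and 0.66 TPM and Hapln1 had 0.87 and 0.59 TPM, in pup 1 and pup 3. Ucma, Matn3, Comp, Acan and Matn1 stayed at 0.38 TPM or below, and Acan and Matn1 were chosen after their values were seen. Bone markers gave 2 of 9, Spp1 and Alpl, with sums of 69.3 TPM in pup 1 and 58.4 TPM in pup 3. Most of these sums was Spp1, with 58.78 TPM in pup 1 and 49.89 TPM in pup 3, and Bglap2 was at 0 in both pups. Skin markers gave 3 of 7 (Krt1 and Lor highest), with sums of 38.0 TPM in pup 1 and 32.3 TPM in pup 3. Skeletal muscle markers gave 2 of 7 (Acta1 and Mylpf highest), with sums of 22.4 and 17.0 TPM, of which Acta1 held 17.9 and 14.39 TPM. Their part in the collagen levels was not tested.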

How the data were processed

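Total RNA libraries from 2 forebrains were used, with 40066386 expected counts in pup 1 and 40431595 in pup 3; counting intervals cover counting error only. The deposited notes name assembly mm10 and GENCODE M4; the sources used here do not state aligner, quantifier or strandedness. The deposited tables hold expected counts, which divide shared reads and need not be whole, TPM per the file headers, and bounds of an interval of unstated level around a posterior mean TPM, which need not hold the TPM itself. The share of a transcript in its gene is a deposited percent. GENCODE M21 (GRCm38, the build of mm10) gave symbols, types and positions by identifier without version (42462 entries matched).

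Expected counts were rounded for TMM (edgeR 4.0.16) and for size factors (DESeq2 1.42.0), in R 4.3.3; no count test was run, since 1 group gives no contrast. Levels, ratios and figures were computed in Python 3.11.15 with pandas 2.3.3, numpy 2.4.6, matplotlib 3.10.9 and scipy 1.17.1. The call rule between pups was also run on simulated data, but the outcome is not reported here and lends no support to the calls. The libraries differed beyond counting noise (chi-square over degrees of freedom 52.4, 18944 genes), so they were kept as 2 samples. Members, lists, pairs and tests were chosen with earlier results of these data known. All collagens are named, with values for those detected. From a pathway list the 3 highest, the lowest and any called gene are named. From a marker list the 2 highest, those at 0 and any called gene are named, and the cartilage list is named in full. The forebrain region list, Acan and Matn1 were added after the data were seen, and 1 gene of that list is not reported here. Protein features were read as codons of GENCODE M21 transcripts, and amino acid sequences were not used here. The alternatives tried were posterior mean TPM, other pseudocounts, thresholds and filters, count scaling, counts not divided by length, class membership, each pup alone and, added after seeing the data, protein-coding transcripts only.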

Additional observations from a re-analysis of the deposited data

How the results depend on the processing

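No paired analysis was possible because the 2 libraries form 1 group. With 1 animal per value, no p-value supports any ratio. Detection gave 28 collagens, 12 at 5 TPM, 30 at 0.5 TPM or with posterior mean TPM, 41 at 10 or more expected counts in both pups, 26 with protein-coding transcripts only and 29 in each pup alone. The median of type IV genes was 2.42 TPM, 21.2 TPM over detected members and 1.89 TPM with types VII, XV and XVIII added; the median of other types was 2.31 TPM and 3.41 TPM over detected members. Without 1 pup or the other, medians ranged from 2.11 to 4.2 TPM (fibrillar), 2.2 to 2.65 TPM (type IV) and 1.68 to 2.64 TPM (other), and the TPM share from 0.0305% to 0.0359%. The mean share was 0.0332% of TPM, 0.0398% of nuclear protein-coding TPM and 0.101% of counts. Of 72 pair results under other settings, 67 kept their direction and side of the 3 SD rule. With counts not divided by length, the log2 ratio turned to 0.038 for Col1a1 over Col1a2, -0.025 for Col4a3 over Col4a4 and 0.15 for Col8a1 over Col8a2; longer transcripts give more reads by construction. The log2 ratio moved by over 1.5 times on the linear scale to 1.40 for Col11a1 over Col11a2, -3.20 for Col15a1 over Col18a1 and -3.61 for Col5a3 over Col5a1 with such counts, and to -1.73 for Col5a3 over Col5a1 with a pseudocount of 1. It also moved by over 1.5 times to -3.33 for Col6a3 over Col6a1 with protein-coding transcripts only. The same held for Col15a1 over Col18a1, at -1.82 with posterior mean TPM. Collagens called between pups numbered 1 as reported, 0 with counts scaled by TMM or DESeq2 and counting intervals in place of the deposited ones, 4 at 1.5-fold and 0 with a pseudocount of 1. For all genes these were 596, 259 (TMM, counting intervals), 260 (DESeq2, counting intervals), 2539 (1.5-fold), 270 (pseudocount 1) and 997 without a filter on low values. Low collagens rest on as few as 3 counts, which limits any ratio among them.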

Other observations

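Proteins with a collagen domain that are not named as collagens were detected in 9 of 18 cases. The highest were the complement genes C1qb, with 58.42 TPM in pup 1 and 65.04 TPM in pup 3, C1qc, with 40.02 TPM in pup 1 and 40.95 TPM in pup 3, and C1qa, with 36.58 TPM in pup 1 and 36.14 TPM in pup 3, all 3 known from microglia. Adipoq, the fat cell hormone adiponectin, was lowest, with 0.03 TPM in pup 1 and 0 in pup 3.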
